A study of Homo sapiens with 4 samples.

Results

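The KMT2 and KAT6 chromatin regulators are described here as 10 genes, chosen by name out of 18417 genes measured. They are the KMT2 (MLL) methyltransferases KMT2A, KMT2B, KMT2C and KMT2D, their cofactors MEN1, WDR5, ASH2L and RBBP5, and the acetyltransferases KAT6A (MOZ) and KAT6B (MORF). Each gene was represented by its transcript cluster, the array's set of probes for a transcript, with the highest mean signal over the arrays, and all 10 members had one. The study profiled MDA-MB-468, a breast cancer line that carries the R273H substitution in its endogenous p53, on 4 Affymetrix Human Gene 1.0 ST arrays. In 2 of the samples a lentiviral shRNA against that mutant p53, p53si-1, had been introduced, and in the other 2 a non-targeting lentiviral shRNA (NS). All arrays thus came from 1 cell line and from virus-transduced cells, and p53 loss was modelled by 1 shRNA sequence, so its effect and any other effect of that sequence cannot be told apart. The study's methods and its results text give different times after transduction, so the time is uncertain, and the p53 transcript is not analysed here.

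KMT2 enzymes place methyl groups on lysine 4 of histone H3 at promoters and enhancers of active genes, and they do so weakly until bound by the shared core of WDR5, RBBP5 and ASH2L. Menin, the product of MEN1, tethers the complexes of KMT2A and KMT2B to chromatin. KAT6A and KAT6B are the catalytic subunits of the MOZ/MORF complexes, which acetylate histone H3. The study ran the arrays to look for how p53-R273H keeps tumor cells alive and lets them survive detachment, and it did not single out these regulators. Their choice here draws on other work. There, gain-of-function p53 mutants acting with the transcription factor ETS2 were described as activators of KMT2A, KMT2D and KAT6A. The members were also chosen with earlier results of these data known.

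Because an ETS factor enters that background, the promoters of KMT2A, KMT2D and RBBP5 are shown. They are the only members with a match, as defined below, in the stretch given. The first pair are genes that background names, and RBBP5 had a higher mean after p53si-1. No promoter window was available for KAT6A, also named there. Each line gives the last 150 bases before the annotated start in RefSeq, build GRCh38.p14, 5′ to 3′ on the gene's strand. Capitals mark matches to CCGGAA or CGGAAG, letters that many ETS sites hold, on either strand.
KMT2A, chr11:118436342-118436491, plus strand: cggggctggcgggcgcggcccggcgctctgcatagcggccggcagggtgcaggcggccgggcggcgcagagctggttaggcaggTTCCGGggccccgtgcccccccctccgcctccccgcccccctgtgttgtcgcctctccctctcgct
KMT2D, chr12:49060795-49060944, minus strand: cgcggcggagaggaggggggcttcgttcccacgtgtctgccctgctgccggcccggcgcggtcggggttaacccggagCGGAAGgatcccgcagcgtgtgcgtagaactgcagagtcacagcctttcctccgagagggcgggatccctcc
RBBP5, chr1:205121979-205122128, minus strand: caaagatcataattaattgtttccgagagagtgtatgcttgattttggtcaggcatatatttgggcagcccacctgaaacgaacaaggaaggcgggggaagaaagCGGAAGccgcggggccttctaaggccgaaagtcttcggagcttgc

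The match began 66 bases before the start in KMT2A, 72 in KMT2D and 45 in RBBP5. Of the 10 members, 8 had a promoter window of 250 bases before and 50 bases after a start in the RefSeq table, 14 windows in all. At least 1 of the 2 motifs, which overlap in CCGGAAG, was found in 4 of the 14 windows (28.6%), 1 each of KMT2A, KMT2D, RBBP5 and WDR5. Of all 35116 windows, 17.2% held CCGGAA, 19.5% held CGGAAG and 25.2% held at least 1 of them, close to the share among the members' windows. No window of KAT6B, KMT2B, KMT2C or MEN1 held either run of letters, which says nothing of ETS binding there. KAT6B, with a higher mean after p53si-1 by as much as RBBP5, is not among the promoters shown.

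None of the 10 regulators passed an adjusted p of 0.05 from limma, and none differed by over 1.5-fold. KAT6B and RBBP5 were the members with the largest differences, each about 1.23-fold higher with p53si-1. On the clusters used, KMT2A, KMT2C, KMT2D and KAT6A had group means no more than 0.08 apart on the log2 scale. In none of these clusters did both p53si-1 arrays lie below both NS arrays, but in a second, dimmer KMT2A cluster they did. KMT2B and MEN1 were slightly lower with p53si-1, with groups that did not overlap. The group means of WDR5 and ASH2L differed by less than the gap between the 2 arrays of either group. Over all genes, 0.109% passed the adjusted threshold and 0.923% differed by over 1.5-fold.

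The members were separated between groups about as often as other genes. In 4 of 10 members both p53si-1 arrays lay on 1 side of both NS arrays, against 42.5% of all genes. KAT6B and RBBP5 were separated upwards, as were 19.9% of all genes, and KMT2B and MEN1 downwards, as were 22.6%. At an unadjusted p under 0.05 from limma there were 2 members, KAT6B and RBBP5, against 12.3% of all genes. The same 2 members passed 1.2-fold, against 10.6% of all genes. The median log2 fold change of the members was 0.02, beside -0.01 over all genes, and their median size of change without regard to sign was 0.058, beside 0.0927.

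**Figure D1:**
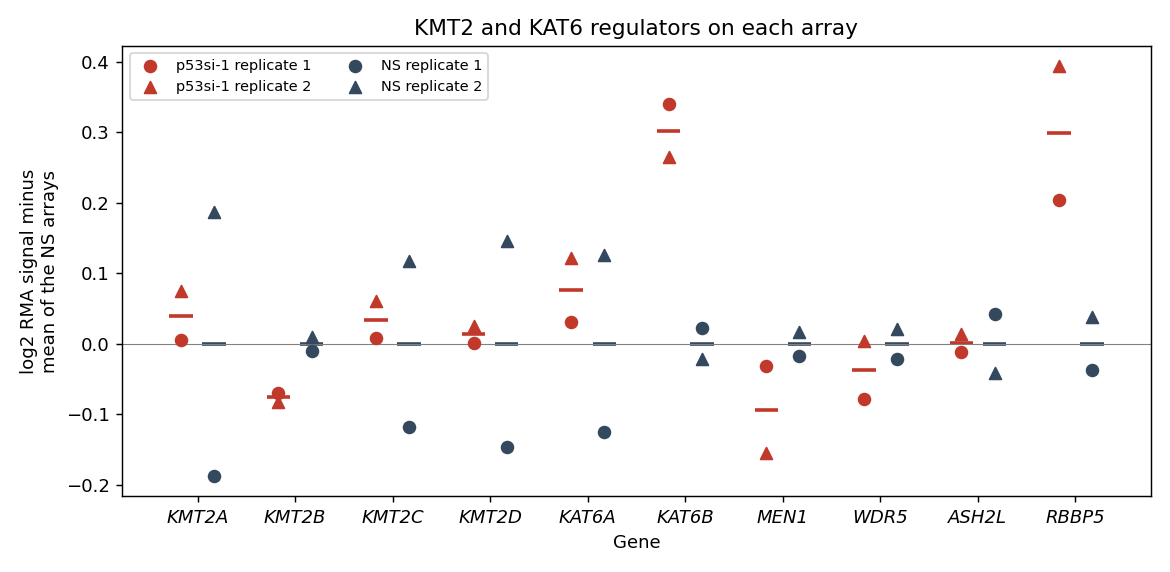
Difference between an array's log2 RMA signal and the NS mean (vertical axis) for the 10 genes (horizontal axis), with p53si-1 in red and NS in dark blue, circles for replicate 1, triangles for replicate 2 and bars for group means of 2 arrays. For KAT6B and RBBP5 both p53si-1 points are above both NS points, while for KMT2A, KMT2C, KMT2D and KAT6A the NS arrays lie on either side of the p53si-1 mean.

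KMT2A, the founding MLL enzyme and the gene broken in MLL-rearranged leukemia, had log2 signals of 7.87 and 7.94 on the p53si-1 arrays and 7.68 and 8.05 on the NS arrays. Both p53si-1 values fell between the NS values. The group means were 7.91 ± 0.0488 with p53si-1 and 7.87 ± 0.265 with NS (SD, n = 2 arrays each), so that the log2 fold change was 0.04 (95% interval -0.29 to 0.37, adjusted p = 0.939 from limma). The lower end of that interval is a fall of 1.22-fold, and it depends on the fit and the cluster, as given below. A second KMT2A cluster, which the annotation ties to a single cDNA record, read differently. It gave 5.14 and 5.04 with p53si-1 and 5.26 and 5.45 with NS, so that here both p53si-1 arrays were lower. Its log2 fold change was -0.26 (95% interval -0.54 to 0.02) when all 33297 clusters were fitted (adjusted p = 0.618 from limma), and in that fit the first cluster had an interval of -0.34 to 0.43. The files do not say which part of the transcript either cluster measures. With the mean of both clusters KMT2A was at -0.11.

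KMT2B, the closest relative of KMT2A, had 6.26 and 6.25 with p53si-1 and 6.32 and 6.34 with NS. The p53si-1 arrays were the lower pair by a narrow margin, with a log2 fold change of -0.08 (95% interval -0.27 to 0.12, adjusted p = 0.765 from limma). KMT2C and KMT2D form the other pair of relatives and act with the demethylase KDM6A at enhancers. KMT2C had 7.10 and 7.15 with p53si-1 and 6.98 and 7.21 with NS, and KMT2D had 5.976 and 6.0002 with p53si-1 and 5.83 and 6.12 with NS. In both genes the p53si-1 values lay inside the NS range. Their log2 fold changes were 0.03 (95% interval -0.22 to 0.29) for KMT2C and 0.01 (95% interval -0.26 to 0.29) for KMT2D. The interval of KMT2D ends at a fall of 1.2-fold. Partial copies of KMT2C lie elsewhere in the genome, and whether they add to its signal is uncertain.

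KAT6A had 7.33 and 7.42 with p53si-1 and 7.17 and 7.42 with NS, so the groups overlapped. Its log2 fold change was 0.08 (95% interval -0.19 to 0.34, adjusted p = 0.836 from limma), and the lower end is a fall of 1.14-fold. KAT6B had 7.26 and 7.19 with p53si-1 and 6.94 and 6.90 with NS. Both p53si-1 arrays were higher by more than either group's spread, with means of 7.22 ± 0.0528 with p53si-1 and 6.92 ± 0.0309 with NS (SD, n = 2 arrays each). The log2 fold change of KAT6B was 0.30 with a standard error of 0.08 (95% interval 0.10 to 0.50, adjusted p = 0.238 from limma), so it did not pass over all genes. A change of this size or larger was seen in 7.53% of all genes.

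RBBP5, a core subunit that bridges ASH2L and the catalytic domain, had 8.85 and 9.04 with p53si-1 and 8.61 and 8.68 with NS. All values with p53si-1 exceeded those with NS, with means of 8.94 ± 0.134 with p53si-1 and 8.64 ± 0.0534 with NS (SD, n = 2 arrays each). The log2 fold change was 0.30 with a standard error of 0.10 (95% interval 0.06 to 0.54, adjusted p = 0.313 from limma). The other core subunits moved less. WDR5, the beta-propeller protein that holds the KMT2 enzyme, had 8.76 and 8.84 with p53si-1 and 8.81 and 8.86 with NS, a log2 fold change of -0.04 (95% interval -0.24 to 0.17). ASH2L had 9.69 and 9.72 with p53si-1 and 9.74 and 9.66 with NS, a log2 fold change of 0.00 (95% interval -0.20 to 0.20). In both the groups overlapped. MEN1 had 8.17 and 8.05 with p53si-1 and 8.18 and 8.22 with NS, with p53si-1 the lower pair and a log2 fold change of -0.09 (95% interval -0.31 to 0.12, adjusted p = 0.736 from limma). Without 1 array it ran from -0.16 to -0.0316.

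**Figure D2:**
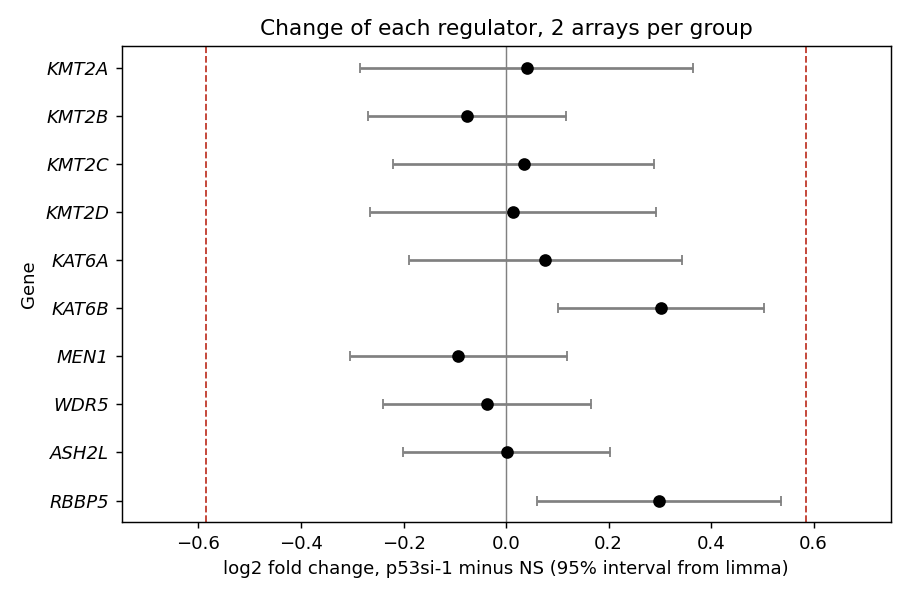
Log2 fold change (p53si-1 minus NS, horizontal axis) of the 10 genes (vertical axis) with the 95% interval from limma, 2 arrays per group, and dashed red lines at 1.5-fold. All 10 intervals lie inside the dashed lines, and those of KAT6B and RBBP5 start above 0, at 0.10 and 0.06.

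The direction of 4 large enzymes turned on a single NS array. NS replicate 2 exceeded NS replicate 1 by 0.37 for KMT2A, 0.29 for KMT2D, 0.25 for KAT6A and 0.24 for KMT2C on the log2 scale. A gap of that size between the NS arrays was found in 3.90% of all genes for KMT2A, 8.69% for KMT2D, 13.1% for KAT6A and 15.04% for KMT2C, and the median gap over all genes was 0.0995. The p53si-1 arrays differed by only 0.07, 0.02, 0.09 and 0.05 for these genes. Without NS replicate 1 the log2 fold changes of KMT2A, KMT2D, KAT6A and KMT2C were -0.15, -0.13, -0.05 and -0.08. Without NS replicate 2 they were 0.23, 0.16, 0.20 and 0.15. Neither form passed.

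Taken by replicate number, the same arrays showed opposite signs for these genes. Between the replicate 1 arrays p53si-1 minus NS was 0.19 for KMT2A, 0.15 for KMT2D, 0.16 for KAT6A and 0.13 for KMT2C. Between the replicate 2 arrays it was -0.11, -0.12, -0.0034 and -0.06. In 5 of the 10 members, these 4 and ASH2L, the sign differed between the replicate numbers, against 37.6% of all genes. KAT6A enters that count only through the -0.0034 of replicate 2. KAT6B was higher in both, by 0.32 and 0.29, and so was RBBP5, by 0.24 and 0.36. KMT2B, MEN1 and WDR5 were lower in both. KAT6B stayed between 0.26 and 0.34 and RBBP5 between 0.20 and 0.39 when any 1 array was left out.

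**Figure D3:**
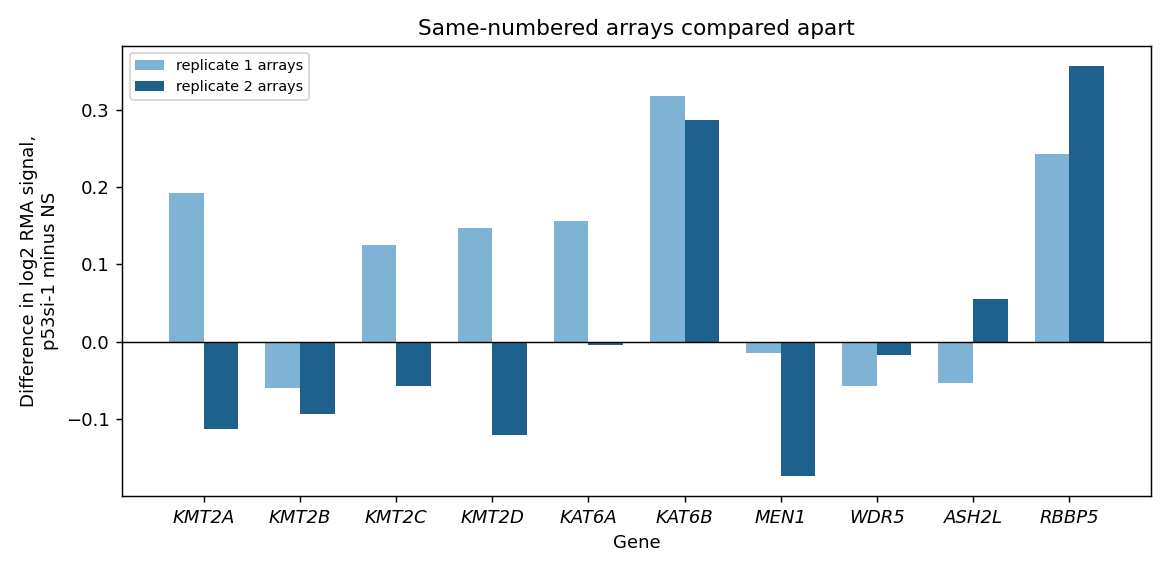
Difference in log2 RMA signal between the p53si-1 and the NS array of the same replicate number (vertical axis) for the 10 genes (horizontal axis), light bars for replicate 1 and dark bars for replicate 2. The bars of KMT2A, KMT2C and KMT2D point up for replicate 1 and down for replicate 2. That of KAT6A points up for replicate 1 and is only -0.0034 for replicate 2. Those of KAT6B and RBBP5 point up in both.

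Whether paralogs differed in their response was asked with the ratio of both transcripts within each array. The log2 ratio of KAT6B over KAT6A was -0.07 and -0.23 with p53si-1 and -0.23 and -0.52 with NS, a difference of 0.23. Although KAT6B alone was separated between the groups, this ratio was not, since 1 value of each group was nearly equal (exact permutation p = 0.667). For KMT2A over KMT2B the difference was 0.12 (exact permutation p = 1) and for KMT2C over KMT2D it was 0.02 (exact permutation p = 0.667). After adjustment over the 3 pairs every p was 1, and with 4 arrays the smallest two-sided p this test can reach is 0.333.

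Partners of these complexes and other histone modifiers, target genes and ETS factors were followed in 8 lists of 75 genes, of which 68 were measured. None passed an adjusted p of 0.05 from limma in either direction and none differed by over 1.5-fold, while 11 had an unadjusted p under 0.05, 6 higher and 5 lower with p53si-1 (16.2%, beside 12.3% of all genes). The groups did not overlap in 33 of the 68, or 48.5%, beside 42.5% of all genes. Over all genes 47.4% had a higher mean with p53si-1, and splits in lists this short are imprecise. Among 13 partners of the SET1 and MLL complexes, 9 had a higher mean, and the median was 0.05. PSIP1, the LEDGF protein that joins menin and KMT2A to chromatin, had 9.10 and 8.86 with p53si-1 and 9.27 and 9.43 with NS, which is -0.37 on the log2 scale (adjusted p = 0.286 from limma). WDR82, a subunit of the SET1 complexes, had 10.22 and 10.39 with p53si-1 and 10.09 and 10.02 with NS, a log2 fold change of 0.25. Both were separated between the groups, in opposite directions. Among 8 partners and relatives of KAT6, 6 had a lower mean and the median was -0.08, with BRPF3, a scaffold of the acetyltransferase complexes, at -0.22 (-0.34 to -0.0923 without 1 array) and the acetyltransferase KAT5 at -0.13.

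Of 6 genes of lysine 4 demethylation, 3 had a higher and 3 a lower mean (median -0.01). KDM1B, which removes methyl groups from lysine 4 of histone H3, had the largest change of the 6, matched or exceeded in 2.22% of all genes. It had 7.97 and 7.89 with p53si-1 and 8.39 and 8.40 with NS, well separated, with a log2 fold change of -0.46 (95% interval -0.66 to -0.26, adjusted p = 0.110 from limma). It passed only with dim genes left out (adjusted p = 0.0358 from limma). KDM5A was at 0.12 (0.0080 to 0.23 without 1 array). Of 8 elongation genes that are fusion partners of KMT2A or act with them, 3 had a higher and 5 a lower mean, with AFF4 at -0.20 (-0.31 to -0.0913 without 1 array) and MLLT6 at 0.15 (0.0687 to 0.23 without 1 array).

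Of 11 genes known to depend on KMT2A, menin or KAT6A, 5 were measured, and the HOXA genes of the list and CDKN2C are not analysed here. The mean was higher in 4 of the 5 (median 0.14), beside 47.4% of all genes. CDKN1B, the cell cycle inhibitor p27, which menin and KMT2A activate in endocrine cells, had 8.02 and 8.20 with p53si-1 and 7.71 and 7.53 with NS. Its values with p53si-1 were all higher, by 1.40-fold (log2 fold change 0.49, 95% interval 0.23 to 0.75, adjusted p = 0.172 from limma), and it did not pass. A change of that size or larger was seen in 1.82% of all genes. HOXB4, a homeobox factor, was at 0.17 (0.0809 to 0.25 without 1 array).

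Among 5 measured acetyltransferases of other families, EP300 was at 0.15 (0.0289 to 0.27 without 1 array) and KAT2B at -0.14 (median 0.07). Among 13 genes of other histone H3 methyltransferase complexes, 7 had a higher mean (median 0.01). SUZ12, a Polycomb subunit, had 9.90 and 10.16 with p53si-1 and 9.67 and 9.71 with NS, which is 0.34 on the log2 scale (adjusted p = 0.301 from limma), and SUV39H1, which methylates lysine 9, was at -0.22.

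ETS2 itself differed between the group means by less than the gap between its NS arrays. It had 7.99 and 7.98 with p53si-1 and 8.02 and 7.93 with NS, a log2 fold change of 0.01 (95% interval -0.19 to 0.21). Among the 10 ETS factors 5 had a higher mean (median -0.02), and 4 had an unadjusted p under 0.05, 2 higher and 2 lower with p53si-1, beside 12.3% of all genes. ETV5 had 6.73 and 6.99 with p53si-1 and 7.26 and 7.41 with NS, which is -0.48 on the log2 scale (adjusted p = 0.198 from limma). A change of that size or larger was seen in 1.96% of all genes. GABPA encodes the DNA-binding subunit of GABP. The brightest cluster annotated to it had 9.36 and 9.27 with p53si-1 and 9.01 and 8.89 with NS. That is 0.36 on the log2 scale (adjusted p = 0.201 from limma). With the mean of all clusters annotated to GABPA the log2 fold change was lower, at 0.23 (adjusted p = 0.325 from limma). Probe locations were not available, so whether the brightest cluster reads the GABPA gene itself was not tested.

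**Figure D4:**
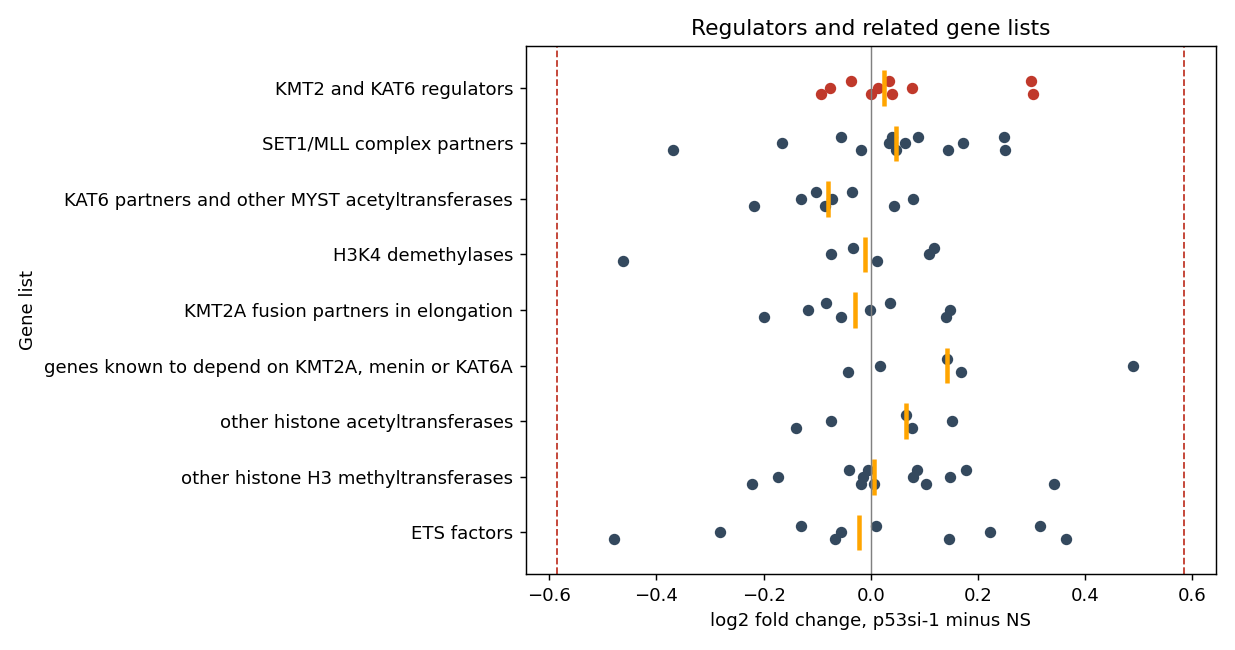
Log2 fold change (p53si-1 minus NS, horizontal axis) of every measured gene in the member list (red) and 8 related lists (dark blue, vertical axis), with orange bars for list medians and dashed red lines at 1.5-fold. No gene reaches the dashed lines, and CDKN1B at 0.49, ETV5 at -0.48 and KDM1B at -0.46 lie farthest out.

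Over the whole series, 6 genes rose and 14 fell at an adjusted p under 0.05 from limma. The array medians ran from 5.66 to 5.69 over all clusters. The 7 markers of epithelial breast cancer, among them KRT8, KRT18 and EPCAM, had log2 signals of 9.38 to 12.6, with none called. The leukocyte markers PTPRC and CD3E and the endothelial markers lay between 3.01 and 5.11, and the fibroblast markers between 4.29 and 7.32, whereas CD14 was at 9.69 to 9.92. The summed log2 signals were 80.4 and 79.3 on the p53si-1 arrays and 80.0 and 79.3 on the NS arrays for the epithelial list, 16.6 and 16.6 with p53si-1 and 16.7 and 16.5 with NS for the leukocyte list, 13.3 and 13.3 with p53si-1 and 13.2 and 13.8 with NS for the endothelial list, and 22.7 and 22.4 with p53si-1 and 22.9 and 23.2 with NS for the fibroblast list. The fibroblast sums were thus slightly lower with p53si-1, with none of the 4 genes called, and their part in the results was not tested. All arrays came from 1 cell line, so these sums of log2 signals are not counts of cells. On that scale a change of a dim gene weighs as much as that of a bright one. CD14 makes up most of the leukocyte sum.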

How the data were processed

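RNA of MDA-MB-468 cells was hybridized to 4 Affymetrix Human Gene 1.0 ST arrays, 2 for p53si-1 and 2 for NS, grouped by the sample titles. For each transcript cluster the authors deposited its value on every array. GCOS, RMA and Affymetrix Expression Console are listed in the submitters' processing notes. The deposited values, from 1.75 to 14.3, were read as log2 signals, which their range and nearly equal quartiles fit, since the table states no scale. RMA aligns the distributions of the arrays and compresses small changes of dim probes. The annotation version of the authors is not given in the sources used here, and the number of arrays limits the precision.

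Of 33297 clusters, 19460 name 1 gene symbol in the platform annotation, 1754 several and 12083 none here. Entrez numbers set against RefSeq changed 0 symbols. The cluster with the highest mean was taken for each of 18417 genes. Differences were fitted with limma 3.58.1 in R 4.3.3 with 2 residual degrees of freedom and 4.20 from the prior, p-values were adjusted by Benjamini-Hochberg over all genes tested, and the steps were tested on simulated data. The study states only a 1.5-fold threshold for the arrays. One legend of the study calls the experiments independent, and no source says that replicate numbers mark a shared culture or day. The members and lists were chosen with earlier results of these data known. Besides all members, the text names in each list the 2 genes with the largest change, since none passed a threshold, and ETS2. The paralog ratios and the comparison of same-numbered arrays were chosen after the data were seen. Alternatives changed the cluster rule, the features tested, the filter, the normalization, the prior, the block, the arrays and the fold.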

Additional observations from a re-analysis of the deposited data

How the results depend on the processing

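With 2 arrays per group, all counts of calls are imprecise. No member was called under any alternative fit that kept all 4 arrays, and the lowest adjusted p of a member was 0.102 from limma. With every transcript cluster tested no gene at all was called, so the lack of member calls in that fit adds nothing. With all 4 arrays 7 of the 10 members had a higher mean, beside 47.4% of all genes. Without 1 array the number of members with a higher mean ran from 3 to 8, and the members' median log2 fold change from -0.0712 to 0.16. With the arrays of replicate 1 alone that median was 0.14, and with those of replicate 2 alone -0.04. The number of members past the fold threshold was 2 at 1.2-fold. KMT2A was at -0.11 with the mean of its clusters and ASH2L at -0.0105 after quantile normalization. Among same-numbered arrays, KMT2A, KMT2C, KMT2D and KAT6A were at -0.11, -0.06, -0.12 and -0.0034 for replicate 2, and ASH2L was at -0.0531 for replicate 1 and 0.0554 for replicate 2. Without 1 array KMT2A ran from -0.15 to 0.23, KMT2C from -0.0840 to 0.15, KMT2D from -0.13 to 0.16, KAT6A from -0.0490 to 0.20, WDR5 from -0.0785 to 0.0040, ASH2L from -0.04 to 0.04 and ETS2 from -0.0361 to 0.0558. The cause of these turns was not tested. KMT2B and KMT2D, with mean signals of 6.25 and 5.99 with p53si-1 and 6.33 and 5.97 with NS, were left out with the dim genes and have no value there. With dim genes left out 1 other pathway gene, KDM1B, was called, where fewer genes were tested.

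Over all genes 20 were called. The count was 0 with every transcript cluster tested, 220 with dim genes left out, 62 after median centring, 149 with a prior variance that depends on signal, 4 with a robust prior, 4 with clusters of several symbols included, 12 with the replicate block and 0 or 1 without any 1 array. Genes past 1.5-fold numbered 170, and 539 with every cluster, 1952 at 1.2-fold and 199 to 295 without 1 array. The replicate block called no member (KAT6B adjusted p = 0.159 and RBBP5 adjusted p = 0.171 from limma). Same-numbered arrays deviated together over all genes (correlation 0.24), from only 2 pairs.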
